A study of Bos taurus with 6 samples.

Results

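To examine how much red-cell miRNA the liver libraries of grass-fed and grain-fed cattle held, and whether the clustered bta-miR-144 and bta-miR-451 moved together, 3 erythroid miRNAs were followed through 6 small RNA libraries. They were bta-miR-144, bta-miR-451 and bta-miR-486, taken by name from the 1030 mature miRNAs listed in each library. The samples came from steers of the Wye Angus herd, which has long been closed, with 1 liver library per animal. The 3 animals of the grass-fed group were 21 months old and had been raised on alfalfa, hay or grass pasture, and the 3 animals of the grain-fed group were 14 months old and had been raised mainly on corn silage, shelled corn, soybean and minerals. Every animal was sampled at market weight from the left lobe of the liver, so diet and age cannot be told apart. Whether blood was washed out of the tissue is not given in the sources used here.

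Red blood cells lose their nucleus but keep a store of miRNAs, and a few of these are so abundant in them that they serve as a measure of blood or of ruptured red cells in other samples. The genes of miR-144 and miR-451 are transcribed together as a cluster under GATA1, the transcription factor that drives red-cell development. The pair leave the cluster by different routes, since the miR-144 hairpin is cut by Dicer, whereas the short miR-451 hairpin bypasses Dicer, is sliced by Argonaute 2 and is then trimmed to its mature length. miR-451 protects red cells from oxidative stress, and miR-144 restrains the antioxidant factor NRF2. miR-486 lies in the gene of ankyrin 1, a protein of the red-cell membrane skeleton, is abundant in red cells, and is also made in skeletal and heart muscle. In the RefSeq gene table of the ARS-UCD2.0 assembly, a newer build than that of the files, MIR451 and MIR144 were direct neighbours with no gene between them and lay between ERAL1 and FLOT2, and MIR486 lay within ANK1.

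Counts of known miRNAs summed to between 3824592 and 6133960 in the grass-fed libraries and to between 464875 and 892929 in the grain-fed libraries. The number of miRNA counts therefore separated the groups in the same way as diet and age. The clean reads that the paper totals per group lay much closer together, with a lower mapped share in the grain-fed group. Why fewer of the grain-fed reads were counted as miRNAs was not tested. Levels are given as CPM, the counts of a miRNA scaled to a fixed library size, after TMM scaling, a method that sets libraries to a common scale through the miRNAs that change least. With 0 counts a miRNA could still stand at up to 0.632 to 0.787 CPM in the grass-fed libraries or at up to 2.92 to 5.32 CPM in the grain-fed libraries, taking 3 counts as the floor. Values of single libraries are listed in the order of replicates 1, 2 and 3. This floor and the intervals below cover counting error only. The tissue label was borne out by bta-miR-122, the main hepatocyte miRNA, which stood between 122849 and 457525 CPM in the 6 libraries.

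bta-miR-451 was the most abundant of the red-cell miRNAs in all 6 libraries, bta-miR-486 came next, and bta-miR-144 was close to the limit of detection. bta-miR-451 ranked between place 68 and place 89 of the 1030 listed miRNAs, bta-miR-486 between place 116 and place 135, and bta-miR-144 between place 313 and place 433. Together they took between 0.0392% and 0.0451% of the miRNA counts in the grass-fed libraries and between 0.0564% and 0.0740% in the grain-fed libraries. bta-miR-451 supplied 70.4% to 76.9% of this sum in the grass-fed and 79.0% to 84.0% in the grain-fed libraries. Adapters join to some miRNA sequences more readily than to others, so the order of these levels is an order of reads. In whole tissue, fewer cells of a type and less RNA per cell cannot be told apart.

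bta-miR-451 had 1399, 2098 and 1308 counts in the grass-fed animals, which corresponded to 294.6, 494 and 343 CPM. In the grain-fed animals it had 514, 395 and 207 counts, or 501, 559 and 367 CPM. Grass-fed replicate 2 reached the level of the grain-fed libraries and grain-fed replicate 3 lay within the grass-fed range, so the groups overlapped. Mean levels (± SD, n = 3 each) were 377 ± 104 CPM for grass-fed and 476 ± 98.4 CPM for grain-fed animals. The log2 fold change of grass-fed over grain-fed was -0.34, with a standard error of 0.26, a 95% interval from -0.90 to 0.22 and FDR = 0.442 in the quasi-likelihood test of edgeR with Benjamini-Hochberg adjustment over 456 miRNAs.

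This value depended on the scaling more than on any library. With libraries scaled by their total count alone, bta-miR-451 had 276, 342 and 342 CPM in the grass-fed animals, against 576, 622 and 445 CPM in the grain-fed animals, and the groups were separate. The log2 fold change was then -0.78 and passed the threshold of 0.1 (FDR = 0.0433, edgeR). The same change of scaling moved the median of all 456 tested miRNAs on the log2 scale from 0.13 to -0.29. Relative to that median, bta-miR-451 stood at -0.47 after TMM, -0.49 after total-count scaling, -0.49 after upper-quartile scaling and -0.48 after the RLE scaling of DESeq2.

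bta-miR-486 had 584, 619 and 413 counts in the grass-fed animals, against 104, 74 and 55 counts in the grain-fed animals. After TMM scaling the levels were 123, 146 and 108 CPM in grass-fed and 101, 105 and 97.6 CPM in grain-fed liver. All 3 grass-fed values lay above all 3 grain-fed values, but the nearest ones were not separate beyond counting error. The exact Poisson 95% interval was 98.2 to 119 CPM in grass-fed replicate 3 and 82.3 to 132 CPM in grain-fed replicate 2. The means were 126 ± 18.9 CPM and 101 ± 3.60 CPM (SD, n = 3 each), and the log2 fold change was 0.31 (standard error 0.23, 95% interval from -0.19 to 0.82, FDR = 0.441, edgeR).

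With total-count scaling the order of bta-miR-486 turned round. The levels were then 115, 101 and 108 CPM in the grass-fed animals, against 116, 117 and 118 CPM in the grain-fed animals, so that every grass-fed value lay below every grain-fed value. The log2 fold change became -0.12 (FDR = 0.826, edgeR). Its ranges were separate under TMM, RLE, upper-quartile and total-count scaling, and only total-count scaling put grass-fed liver lower. With total-count scaling the nearest values, 115 and 116 CPM in replicate 1 of each group, differed by less than counting error. The share of all tested miRNAs with separate ranges was computed after TMM scaling only. Relative to the median of all tested miRNAs bta-miR-486 stood at 0.18 after TMM and at 0.17 after total-count scaling. bta-miR-486 took a nearly fixed share of the miRNA counts, from 0.0101% to 0.0118% over the 6 libraries.

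bta-miR-144 had 5, 12 and 5 counts in the grass-fed animals, against 4, 1 and 0 counts in the grain-fed animals. The corresponding levels were 1.05, 2.83 and 1.31 CPM in grass-fed and 3.90, 1.42 and 0 CPM in grain-fed liver. The highest and the lowest value were both found in the grain-fed group, and the grass-fed values fell between them. Each grain-fed value rested on very few molecules, with an exact Poisson 95% interval from 1.06 to 9.98 CPM in replicate 1 and from 0.0358 to 7.89 CPM in replicate 2, and with the floor of 5.32 CPM in replicate 3. The group means of 1.73 ± 0.959 and 1.77 ± 1.97 CPM (SD, n = 3 each) gave a log2 fold change of -0.32 with a 95% interval from -2.19 to 1.55 (FDR = 0.868, edgeR). Without grain-fed replicate 1 the log2 fold change was 1.03, so no direction of bta-miR-144 could be detected at these counts.

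In the edgeR quasi-likelihood test, 0 of the 3 red-cell miRNAs passed FDR 0.1, where 19.1% of all tested miRNAs did so (9.65% lower and 9.43% higher in grass-fed liver). An unadjusted p under 0.05 was reached by 0 of the 3, where 115 of all 456 tested miRNAs reached it. DESeq2 and limma-voom also called 0 of the 3, where they called 91 and 94 of all 456, and DESeq2 gave no adjusted p for bta-miR-144. With only 3 miRNAs, a count of 0 does not set them apart from all tested miRNAs. After TMM scaling, 1 of the 3, bta-miR-486, had separate ranges in the 2 groups, where 32.9% of all tested miRNAs had separate ranges. A p above the threshold does not show that the levels were equal, and the intervals above give the differences that the libraries allow.

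**Figure D1:**
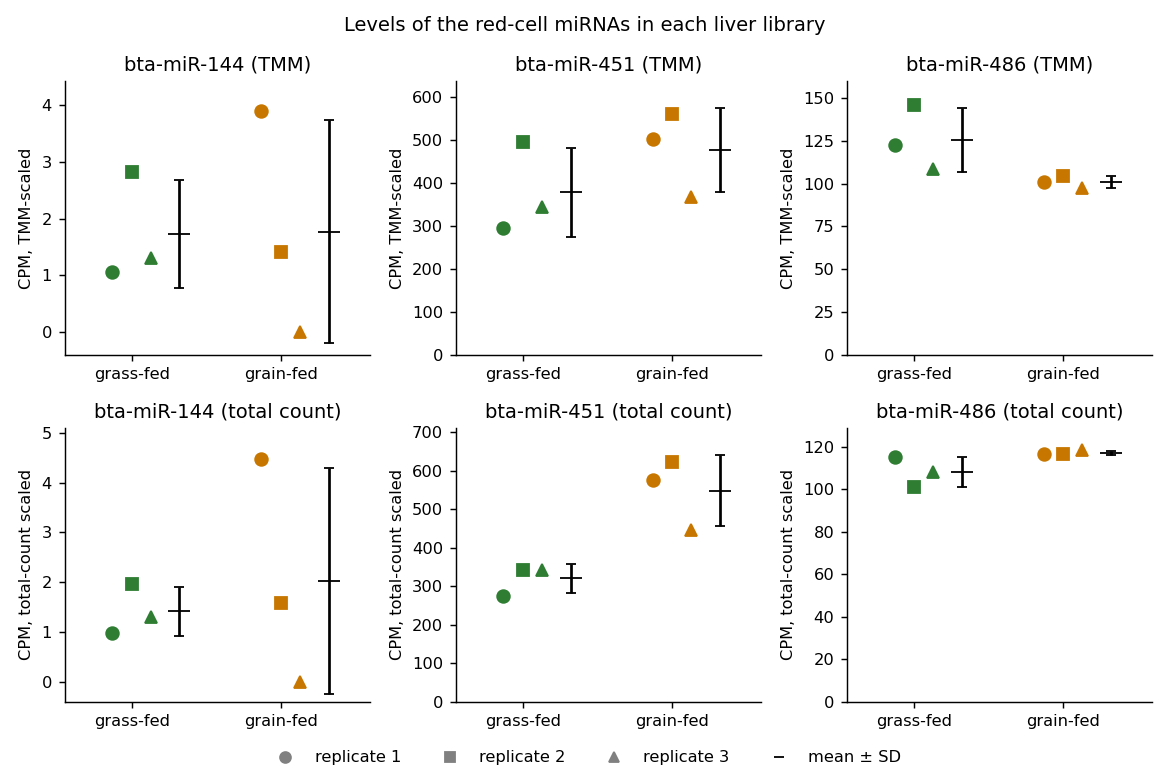
Each point is the level of bta-miR-144, bta-miR-451 or bta-miR-486 in 1 library (circle, square and triangle for replicates 1, 2 and 3), in CPM on a linear axis, with TMM scaling in the upper row and total-count scaling in the lower row, and the black bar is the mean ± SD of 3 libraries. bta-miR-451 overlapped between the groups after TMM and was separate after total-count scaling, and bta-miR-486 lay higher in grass-fed liver after TMM and lower after total-count scaling.

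**Figure D2:**
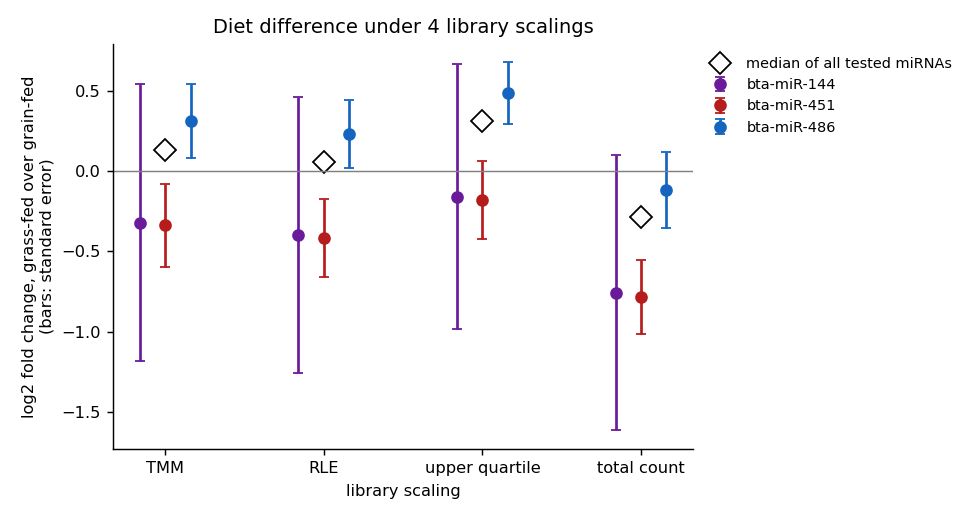
The log2 fold change of grass-fed over grain-fed is plotted for each red-cell miRNA with its standard error under TMM, RLE, upper-quartile and total-count scaling, and the open diamonds mark the median of all 456 tested miRNAs. bta-miR-451 and bta-miR-144 lay below the median and bta-miR-486 above it under each of these scalings. Relative to 0, bta-miR-451 and bta-miR-144 lay below it under all 4 scalings, and bta-miR-486 lay above it except with total-count scaling.

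The red-cell miRNAs summed per library gave 419, 643 and 453 CPM in the grass-fed animals, against 606, 665 and 465 CPM in the grain-fed animals after TMM scaling. The ranges overlapped, with grass-fed replicate 2 above 2 of the grain-fed libraries. The means were 505 ± 121 and 579 ± 103 CPM (SD, n = 3 each), and the exact two-sided permutation test on the log2 sums gave p = 0.4, where the smallest p that 3 libraries against 3 allow is 0.1. With total-count scaling the sums were separate, at 429 ± 32.8 and 667 ± 92.0 CPM (SD, n = 3 each), with an exact permutation p = 0.1.

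Because the levels moved with the scaling, ratios of counts within a library, which need no scaling, were compared between the diets. A total of 10 such ratios were computed and tested with the exact two-sided permutation test, whose p cannot go below 0.1. The p-values were also adjusted over these 10 by the Benjamini-Hochberg method. The ratios among the red-cell miRNAs and the ratio of their sum to bta-miR-122 were planned, and the others were not.

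The ratio of bta-miR-144 to bta-miR-451, the neighbours in the cluster, could not be told apart between the diets. Of the counts of the pair, bta-miR-144 took 0.356%, 0.569% and 0.381% in the grass-fed animals. It took 0.772%, 0.253% and 0% in the grain-fed animals, where 0 of 207 counts leaves an exact (Clopper-Pearson) 95% interval up to 1.77%. Over the group the share was 22 of 4827 counts in grass-fed liver (0.456%, exact 95% interval 0.286% to 0.689%) and 5 of 1121 counts in grain-fed liver (0.446%, 0.145% to 1.04%). Over all libraries the share was 0.454%, and the interval of each of the 6 libraries held this value. The share comes from these same libraries and the few counts make the intervals wide, so this does not show that 1 share held in all. At that share bta-miR-144 would have 6.37, 9.58 and 5.96 counts in the grass-fed and 2.35, 1.80 and 0.940 counts in the grain-fed libraries, in the order of replicates 1, 2 and 3.

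The log2 ratio of bta-miR-144 to bta-miR-451, with 0.5 added to each count because of the library with a 0, was -7.76 ± 0.32 in grass-fed and -7.86 ± 0.94 in grain-fed liver (SD, n = 3 each). The difference of 0.10 was smaller than either SD (exact permutation p = 0.8, adjusted p = 0.8), and it became -0.054 without the library that had no bta-miR-144 count and with nothing added. The odds of a bta-miR-144 count were 1.02 times as high in grass-fed as in grain-fed liver, with a conditional 95% interval from 0.377 to 3.46 for counting error. This interval pools the counts of the animals of each diet and leaves out the spread between animals. It therefore does not give the size of difference that could be detected.

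The ratio of bta-miR-486 to bta-miR-451 differed between the diets by more than the spread within them. bta-miR-451 had 2.40, 3.39 and 3.17 counts for each count of bta-miR-486 in the grass-fed animals, against 4.94, 5.34 and 3.76 in the grain-fed animals. Every grain-fed library lay above every grass-fed library. The mean was 2.98 ± 0.522 in grass-fed and 4.68 ± 0.819 in grain-fed liver (SD, n = 3 each). On the log2 scale bta-miR-486 over bta-miR-451 was higher in grass-fed liver by 0.65, which exceeded the SD of 0.27 in grass-fed and of 0.26 in grain-fed liver (exact permutation p = 0.1, the smallest possible, adjusted p = 0.167). With any single library removed the difference lay between 0.50 and 0.80. The nearest libraries were grass-fed replicate 2, with 77.2% of the pair's counts from bta-miR-451 (exact 95% interval 75.6% to 78.8%), and grain-fed replicate 3, with 79.0% (73.6% to 83.8%), and their intervals overlapped.

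The ratio of bta-miR-486 to bta-miR-144 was limited by the low counts of bta-miR-144. Its log2 values were 6.20 ± 0.55 in grass-fed and 5.66 ± 1.13 in grain-fed liver (SD, n = 3 each, 0.5 added to each count), a difference within the spread (exact permutation p = 0.7, adjusted p = 0.8) that turned to -0.016 without grain-fed replicate 1.

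**Figure D3:**
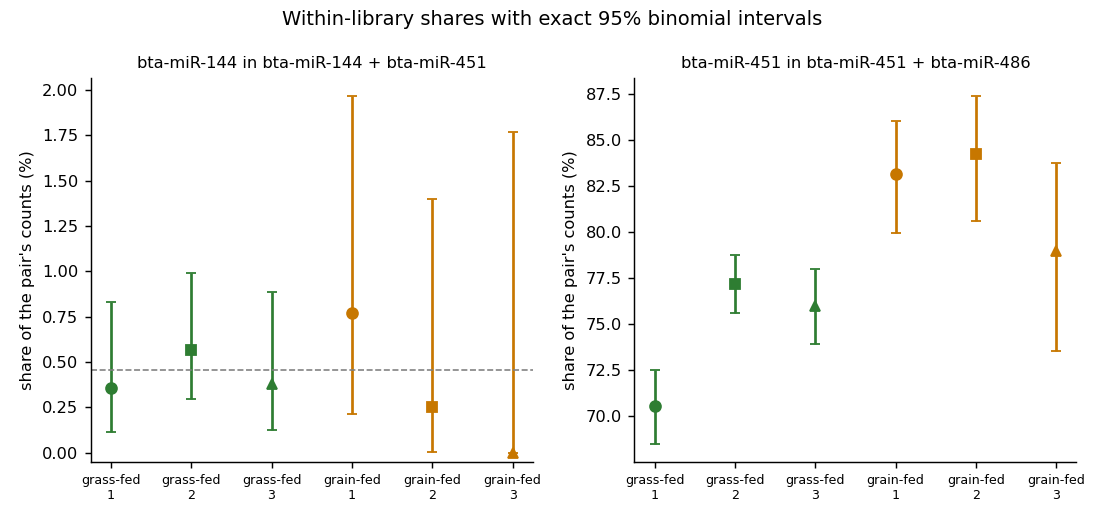
The share of bta-miR-144 in the counts of bta-miR-144 and bta-miR-451 (left) and the share of bta-miR-451 in the counts of bta-miR-451 and bta-miR-486 (right) are plotted in percent for each library, with exact 95% binomial intervals. The dashed line marks the share of 0.454% over these same libraries, which lies in all 6 wide intervals on the left. On the right, where the axis does not start at 0, the 3 grain-fed points lie above the 3 grass-fed points.

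Against the hepatocyte miRNA bta-miR-122, the sum of the red-cell miRNAs stood lower in every grass-fed library than in any grain-fed library. The summed red-cell counts were outnumbered by bta-miR-122 by 670, 711 and 657 to 1 in the grass-fed animals, and by 265, 292 and 264 to 1 in the grain-fed animals. The groups were far apart, with a log2 difference in the ratio of -1.31 against an SD of 0.060 in grass-fed and 0.082 in grain-fed liver (n = 3 each, exact permutation p = 0.1, adjusted p = 0.167). bta-miR-122 itself differed between the diets, with a log2 fold change of 1.12 (FDR = 0.00417, edgeR), so the ratio holds the difference of its denominator as well. For bta-miR-451 alone the log2 difference was -1.45 and for bta-miR-486 alone -0.80, each with separate ranges (exact permutation p = 0.1 and adjusted p = 0.167 for each).

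Against miRNAs other than bta-miR-122 the picture was different for bta-miR-451. The ratio of miR-451 to miR-23a, a miRNA that red cells hold little of, is used in plasma to detect haemolysis, and it was computed here after the levels had been seen. It was 0.393, 0.883 and 0.520 in the grass-fed animals, against 0.503, 0.617 and 0.464 in the grain-fed animals. All 3 grain-fed values fell inside the grass-fed range, and the log2 difference of 0.11 was within the spread (exact permutation p = 0.8, adjusted p = 0.8). Grass-fed replicate 2 had the highest ratio, and without it the log2 difference was -0.21. bta-miR-486 over bta-miR-23a was 0.164, 0.261 and 0.164 in the grass-fed animals, against 0.102, 0.116 and 0.123 in the grain-fed animals. These ranges were separate, with a log2 difference of 0.76 (exact permutation p = 0.1, adjusted p = 0.167). After TMM scaling bta-miR-23a itself stood lower in every grass-fed library than in any grain-fed library. It had 656 ± 94.4 against 898 ± 102 CPM (SD, n = 3 each, log2 fold change -0.45, FDR = 0.197, edgeR). Both ratios to bta-miR-23a therefore hold the difference of their denominator as well.

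Blood carries leukocytes too, and a list of their miRNAs was summed for comparison. The part of this sum that came with blood, rather than from leukocytes of the liver itself, was not tested. The list held bta-miR-142-3p, bta-miR-142-5p, bta-miR-223, bta-miR-150, bta-miR-155, bta-miR-146a and bta-miR-146b, and its sum was between 1359 and 2001 CPM in grass-fed and between 2131 and 2541 CPM in grain-fed liver. The log2 ratio of bta-miR-451 to this sum was -2.20 ± 0.49 in grass-fed and -2.32 ± 0.44 in grain-fed liver (SD, n = 3 each), a difference within the spread (exact permutation p = 0.7, adjusted p = 0.8). For bta-miR-486 the values were -3.76 ± 0.23 and -4.53 ± 0.18 (SD, n = 3 each), with separate ranges and a log2 difference of 0.77 (exact permutation p = 0.1, adjusted p = 0.167). The leukocyte sum was itself lower in every grass-fed library than in any grain-fed library after TMM scaling. Both ratios to this sum therefore hold the difference of their denominator as well.

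**Figure D4:**
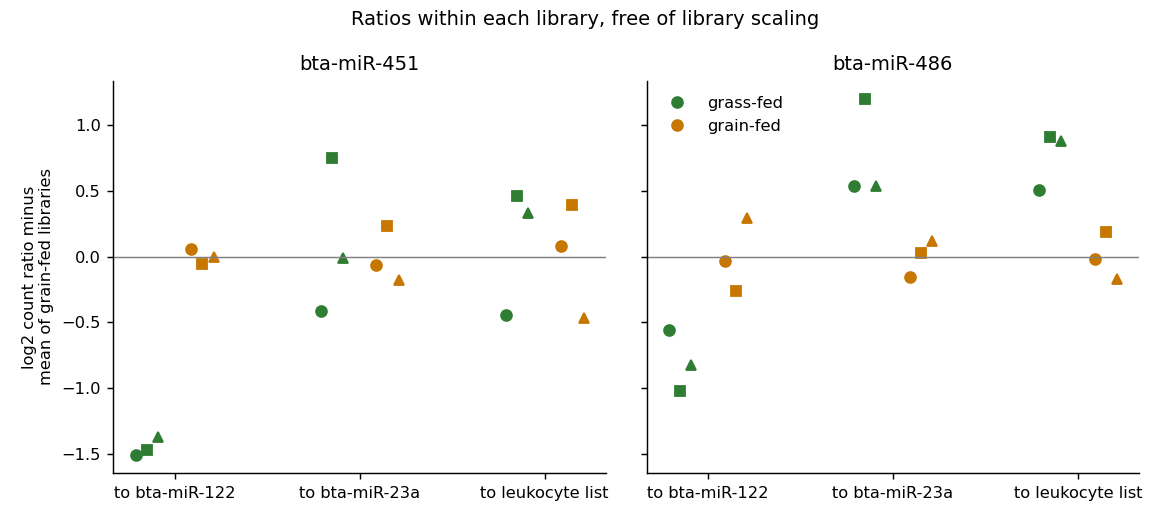
The log2 ratio of bta-miR-451 (left) and of bta-miR-486 (right) to bta-miR-122, to bta-miR-23a and to the summed leukocyte list is plotted for each library (circle, square and triangle for replicates 1, 2 and 3), minus the mean of the grain-fed libraries. bta-miR-451 was separate between the diets only against bta-miR-122, and bta-miR-486 was separate against each of the 3 references, lower in grass-fed liver against bta-miR-122 and higher against the other two.

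Other miRNAs that are abundant in red cells, though not particular to them, were called about as often as the tested miRNAs at large. All 9 of the listed miRNAs were tested (bta-miR-16a, bta-miR-16b, bta-miR-25, bta-miR-92a, bta-miR-93, bta-miR-363, bta-miR-96, bta-miR-182 and bta-miR-183), 1 was lower and 1 was higher in grass-fed liver at FDR 0.1, beside 9.65% lower and 9.43% higher of all tested miRNAs, and their median log2 fold change was 0.04 beside 0.13. With total-count scaling 2 were lower and 0 higher, beside 65 lower and 9 higher of all 456 tested miRNAs, and their median was -0.39 beside -0.29. bta-miR-16b, of the family that restrains the cell cycle, fell from 409 ± 48.6 to 229 ± 34.5 CPM in grass-fed liver (SD, n = 3 each, log2 fold change -0.83, FDR = 0.0235, edgeR). bta-miR-92a, of the growth-promoting cluster of miR-17 to miR-92a, rose from 2797 ± 358 to 5303 ± 1382 CPM (SD, n = 3 each, log2 fold change 0.92, FDR = 0.0153, edgeR), a call that was lost with total-count scaling (FDR = 0.161) and without grain-fed replicate 2 (FDR = 0.105, log2 fold change 0.74). bta-miR-16a, which shares the seed of bta-miR-16b, had 578 ± 105 and 666 ± 98.5 CPM in grass-fed and grain-fed liver (SD, n = 3 each, FDR = 0.651, edgeR).

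Among the 7 leukocyte miRNAs 2 passed FDR 0.1 as lower in grass-fed liver and 0 as higher, beside 9.65% lower and 9.43% higher of all tested miRNAs. With total-count scaling 4 were lower, beside 65 lower and 9 higher of all 456 tested miRNAs. After TMM scaling the median of the list on the log2 scale was -0.62, beside 0.13 for all tested miRNAs. The 2 that passed were bta-miR-146a and bta-miR-146b, which damp inflammatory signalling, with log2 fold changes of -0.67 (FDR = 0.0920, edgeR) and -0.76 (FDR = 0.0332, edgeR). bta-miR-146a passed with grass-fed replicate 1 left out and with no other library left out, and with all libraries kept it was lost with upper-quartile scaling (FDR = 0.172), with no count filter (FDR = 0.131) and with the replicate number as a block (FDR = 0.122). bta-miR-150 of lymphocytes and bta-miR-223 of myeloid cells did not pass, with log2 fold changes of -0.51 (FDR = 0.177, edgeR) and -0.62 (FDR = 0.187, edgeR), and both were called with total-count scaling and with at least 10 counts in 3 libraries, as was bta-miR-150 by DESeq2. The list did not move as one. bta-miR-155 went the other way, at 0.40 (FDR = 0.442, edgeR), and bta-miR-142-5p stood at -0.13 (FDR = 0.766, edgeR) and bta-miR-142-3p at -0.98 (FDR = 0.183, edgeR).

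Since miR-486 is also a muscle miRNA, the muscle list was set beside it. Of its 7 miRNAs 4 were tested, and 1 was higher and 0 lower in grass-fed liver at FDR 0.1. Of all tested miRNAs 9.43% were higher and 9.65% lower. bta-miR-206, the miRNA of regenerating muscle, had 7 counts over the 6 libraries, and bta-miR-208a and bta-miR-208b of heart and slow muscle had 0. The summed list stood between 327 and 559 CPM in grass-fed and between 202 and 364 CPM in grain-fed liver, ranges that overlapped. bta-miR-1 made up most of it, with 387 ± 99.8 and 228 ± 77.8 CPM (SD, n = 3 each, log2 fold change 0.74, FDR = 0.113, edgeR), and it was called with upper-quartile scaling (FDR = 0.0391), by limma-voom (FDR = 0.0971) and without grain-fed replicate 1 (FDR = 0.0510). bta-miR-499, which is encoded in a myosin gene of slow and heart muscle, was higher in grass-fed liver (21.6 ± 9.79 and 7.83 ± 4.18 CPM, SD, n = 3 each, log2 fold change 1.54, FDR = 0.0862, edgeR) and passed with grass-fed replicate 3 removed and with no other library removed. With all libraries kept the call was also lost with total-count scaling (FDR = 0.217), RLE scaling (FDR = 0.102) and limma-voom (FDR = 0.117), and with counts summed over precursors. The part of muscle miRNA in the level of bta-miR-486 was not tested.

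Of the 2 endothelial and platelet miRNAs, 0 passed FDR 0.1 in edgeR in either direction, beside 19.1% of all tested miRNAs. An unadjusted p under 0.05 was reached by 0 of the 2, beside 115 of all 456 tested miRNAs. Of the 6 hepatocyte miRNAs, 2 were higher and 0 lower, namely bta-miR-122 and bta-miR-192, beside 9.43% higher and 9.65% lower of all tested miRNAs. The log2 fold change of the latter was 0.65 (FDR = 0.0285, edgeR), and it was not called with total-count scaling (FDR = 0.469), which left bta-miR-122 as the 1 called member, without grain-fed replicate 1 (FDR = 0.137) or without grain-fed replicate 2 (FDR = 0.161). The members not called were bta-miR-148a at 0.46, bta-miR-885 at 0.41, bta-miR-101 at -0.03 and bta-miR-194 at -0.43 on the log2 scale. The median of the list was 0.43, beside 0.13 for all tested miRNAs. With total-count scaling it was -0.03 beside -0.29, where 65 of all 456 tested miRNAs were lower and 9 higher.

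**Figure D5:**
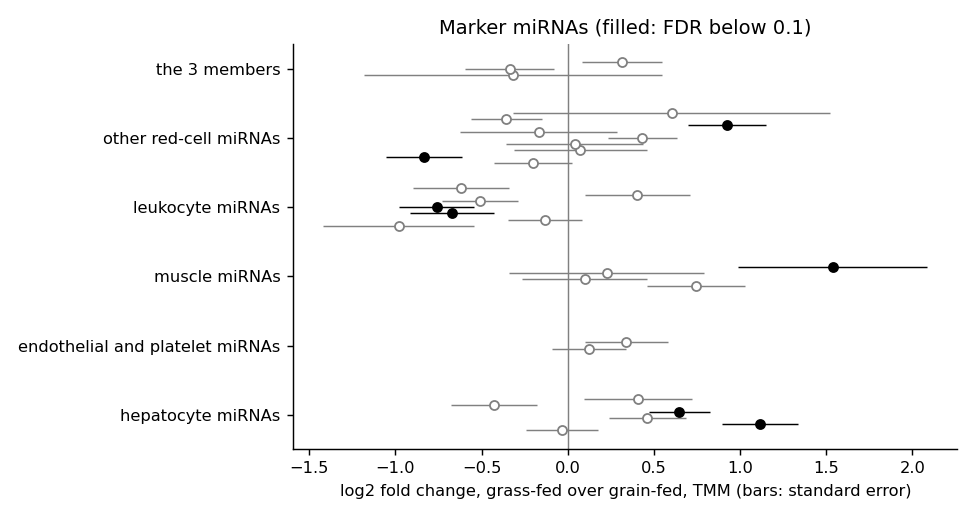
The log2 fold change of grass-fed over grain-fed after TMM scaling is plotted with its standard error for each tested miRNA of the 3 red-cell miRNAs and of the marker lists, with filled points for FDR below 0.1. The 3 red-cell miRNAs, between -0.34 and 0.31, were not called. The called miRNAs of the leukocyte list lay below 0, and those of the hepatocyte list and the 1 called muscle miRNA lay above 0. The list of other red-cell miRNAs had 1 called miRNA on each side of 0.

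The miRNAs that kept the most constant ratio to each red-cell miRNA were sought among 161 others with a mean count of at least 100, using the SD of the log2 count ratio over the 6 libraries. For bta-miR-451 these were bta-let-7b (SD 0.17), bta-miR-455-5p (0.19) and bta-miR-98 (0.19), beside a median SD of 0.55. For bta-miR-486 they were bta-miR-30e-5p (SD 0.11), bta-miR-193a-5p (0.11) and bta-miR-30a-5p (0.11), beside a median of 0.38. For bta-miR-144 they were bta-miR-218 (SD 0.49), bta-miR-98 (0.53) and bta-miR-769 (0.58), beside a median of 0.96. The SDs of 0.11 for bta-miR-486 lay below its counting error in the grain-fed libraries, which was 0.14 to 0.19 for the log2 ratio to bta-miR-122.

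The red-cell miRNAs were not each other's closest match. Seen from bta-miR-144, bta-miR-451 stood in place 7 of the 161 (SD 0.63) and bta-miR-486 in place 46 (SD 0.85). Seen from bta-miR-451, bta-miR-486 stood in place 46 (SD 0.42) and bta-miR-144 in place 105. Seen from bta-miR-486, bta-miR-451 stood in place 97 (SD 0.42, beside the median of 0.38) and bta-miR-144 in place 150. The low counts of bta-miR-144 widen every ratio to it, and these values describe 6 libraries that share a difference in miRNA counts, diet and age.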

How the data were processed

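Small RNA libraries of liver from 3 grass-fed and 3 grain-fed steers were analysed, grouped by the sample labels. After adapter and quality trimming and selection by read length, the authors aligned reads to the ARS-UCD1.2 assembly and quantified miRBase miRNAs with miRDeep2 (its version is not given in the sources used here). Each deposited file holds raw read counts for 1207 combinations of a mature miRNA with its precursor. It also holds a deposited CPM column, relative to the library total, that was not used. The largest count over precursors was taken for each mature miRNA, and each red-cell miRNA has 1 precursor. A miRNA was tested when 2 or more libraries had more than 2 counts.

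Diets were compared by edgeR (version 4.0.16, R version 4.3.3), the tool of the methods, with TMM scaling, its quasi-likelihood test and FDR 0.1. Standard errors were derived from the fold change and its F statistic. Ratios and sums were compared with exact permutation tests in scipy version 1.17.1. A ratio with no pseudocount was planned, and 0.5 was added where bta-miR-144 was involved because 1 library had a count of 0. Alternatives used DESeq2 version 1.42.0, limma-voom (limma version 3.58.1), other scalings, filters and thresholds, the sum over precursors, a replicate block and each library left out. The script was tested on simulated data. Replicates differed by more than the sampling noise.

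The red-cell miRNAs and the marker lists were chosen with earlier results of these data known. The text names the red-cell miRNAs, members of the lists and the 3 miRNAs most alike to each. The RefSeq table, of another assembly, was used for gene names and neighbours only. Total counts per library limit bta-miR-144 most.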

Additional observations from a re-analysis of the deposited data

How the results depend on the processing

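The diet difference of bta-miR-451 was negative under all 18 alternatives and was called with total-count scaling only (log2 fold change -0.78, FDR = 0.0433, edgeR). Over the alternatives that kept all libraries, FDR lay between 0.0433 and 0.663 for bta-miR-451 and between 0.117 and 0.826 for bta-miR-486. bta-miR-486 changed sign with total-count scaling only (-0.12). With each library left out in turn the log2 fold changes ran from -0.59 to -0.28 for bta-miR-451, from 0.18 to 0.32 for bta-miR-486 and from -0.87 to 1.03 for bta-miR-144, which was not tested with at least 10 counts in 3 libraries. In the same way the log2 difference ran from -0.32 to 0.61 for bta-miR-144 over bta-miR-451, from -0.016 to 1.11 for bta-miR-486 over bta-miR-144, from -1.36 to -1.28 for the sum over bta-miR-122 and from -0.39 to -0.084 for the summed CPM. It ran from -0.21 to 0.37 for bta-miR-451 over bta-miR-23a and from -0.12 to 0.40 for bta-miR-451 over the leukocyte sum, and the fold change of bta-miR-16a was 0.0095 with upper-quartile scaling. Without a pseudocount, and without the library at 0, bta-miR-144 over bta-miR-451 was -0.054. The summed CPM differed by -0.63 with total-count and by -0.019 with upper-quartile scaling.

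Of all tested miRNAs 87 were called (43 higher, 44 lower), 74 with total-count scaling (9 and 65), 124 with upper-quartile scaling (82 and 42), 65 without grain-fed replicate 1 (24 higher) and 49 without grain-fed replicate 2 (13 higher). The cause was not tested.

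The replicate numbers name different animals, and the deviations of same-numbered libraries from their group means correlated by -0.11, -0.24 and -0.014, with 0 libraries closest to their own number, so they were not taken as pairs. With the replicate block the log2 fold changes were -0.33, -0.35 and 0.31 for bta-miR-144, bta-miR-451 and bta-miR-486, 82 miRNAs were called, and permutation within replicate numbers could not go below p = 0.25. bta-miR-146a did not pass under the block (FDR = 0.122, edgeR).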

Other observations

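By the SD of the log2 ratio about the diet means, pooled over both diets, bta-miR-451 kept the most constant ratio to the hepatocyte miRNA bta-miR-122 among 161 miRNAs with a mean count of at least 100, a comparison chosen after the values were seen. bta-miR-122 had 952, 925 and 867 counts for each count of bta-miR-451 in the 3 grass-fed libraries, and 321, 348 and 335 in the 3 grain-fed libraries. This SD was 0.064, beside a median of 0.43 for all 161. The counting error of this log2 ratio was 0.032 to 0.040 in the grass-fed and 0.064 to 0.10 in the grain-fed libraries. The SD lay within the range of the grain-fed counting error, so it does not show that bta-miR-451 followed bta-miR-122. The TMM-scaled level of bta-miR-451 spread from 294.6 to 494 CPM in the same 3 grass-fed libraries. bta-miR-122 was in place 133 of 161 by the SD over all 6 libraries, since the ratio differed 2.74-fold between the diets.

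About the diet means the ratio of bta-miR-486 was most constant to bta-miR-29a (SD 0.063), bta-miR-30e-5p (0.072) and bta-miR-193b (0.087), and bta-miR-122 came in place 71 (0.26) and bta-miR-451 in place 75 of the 161. The counting error of the log2 ratio of bta-miR-486 to bta-miR-122 was 0.058 to 0.071 in the grass-fed and 0.14 to 0.19 in the grain-fed libraries. The SDs of 0.063 to 0.087 lay below that of the grain-fed libraries, so they do not show that bta-miR-486 followed these miRNAs. For bta-miR-451, bta-let-7e (0.093) and bta-let-7c (0.12) came next after bta-miR-122 in this ranking. Each of these values rests on 6 libraries and 2 diet means, and no test was made.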
